A study of Mus musculus with 12 samples.

Results

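The genes followed here are 10 genes known from brown fat and heat production: Ucp1, Ucp3, Cox8b, Cox7a1, Cidea, Elovl3, Kcnk3, Otop1, Ppargc1a and Dio2. They were picked by symbol from the 23284 genes of the deposited count tables, with their lymph node values already known, and all 10 are present in both tables. Their node values are therefore given as a description, without a test.

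RNA was measured by poly(A) sequencing in axillary lymph node and spleen of mice of 2 genotypes, and each of the 4 groups has 3 libraries. DKO mice lack both apoE and apoA-I, 2 proteins of circulating lipoproteins, and DKO/hA-I mice carry the same deletions together with an excess of human apoA-I. All mice were 30 weeks old and ate normal laboratory diet. The groups are DKO node, DKO/hA-I node, DKO spleen and DKO/hA-I spleen, and the labels do not give the promoter that drives the human gene.

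Brown adipocytes burn fatty acids to make heat. Noradrenaline acts on beta-adrenergic receptors, lipid is released from many small droplets, and the uncoupling protein UCP1 lets protons return across the inner mitochondrial membrane without making ATP. The program is switched on by transcription factors such as PPAR family receptors with the coactivator PGC-1alpha, and thyroid hormone activated by type II deiodinase amplifies it. In the mouse, axillary lymph nodes lie within fat of the upper body.

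The bases before the start of 4 of the genes are shown because they carry the letters of elements through which nuclear receptors and cAMP are known to act on this program, or the plainer promoter boxes. RefSeq (GRCm38.p6) promoters were searched for 7 of the 10 genes. Cidea, Kcnk3 and Elovl3 were not searched, so nothing is said of their motifs. Each line holds 250 bases, 5′ to 3′ on the gene's strand, ending at the base before the RefSeq start. The gene coordinates given further below are from GENCODE, and their starts differ from these. The Dio2 window does not adjoin the GENCODE gene, which starts at 90738438, and the Cox7a1 window reaches into its gene, which starts at 30184144. They lie at chr8:83290098-83290347 (plus strand) for Ucp1, chr7:100472741-100472990 (plus) for Ucp3, chr7:30183921-30184170 (plus) for Cox7a1 and chr12:90739039-90739288 (minus) for Dio2.
Ucp1: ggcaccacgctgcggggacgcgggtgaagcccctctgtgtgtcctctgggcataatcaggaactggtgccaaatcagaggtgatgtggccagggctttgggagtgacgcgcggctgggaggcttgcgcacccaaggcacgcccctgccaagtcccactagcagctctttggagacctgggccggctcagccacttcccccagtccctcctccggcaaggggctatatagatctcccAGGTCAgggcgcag
Ucp3: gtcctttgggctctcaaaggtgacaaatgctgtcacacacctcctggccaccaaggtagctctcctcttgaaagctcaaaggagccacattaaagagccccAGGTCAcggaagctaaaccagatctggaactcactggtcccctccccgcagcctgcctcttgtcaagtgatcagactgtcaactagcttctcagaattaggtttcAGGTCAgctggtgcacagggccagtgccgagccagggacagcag
Cox7a1: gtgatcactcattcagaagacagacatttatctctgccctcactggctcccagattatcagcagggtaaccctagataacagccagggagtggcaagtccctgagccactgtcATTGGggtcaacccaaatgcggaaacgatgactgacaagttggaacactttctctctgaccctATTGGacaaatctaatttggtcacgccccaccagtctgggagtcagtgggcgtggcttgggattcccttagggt
Dio2: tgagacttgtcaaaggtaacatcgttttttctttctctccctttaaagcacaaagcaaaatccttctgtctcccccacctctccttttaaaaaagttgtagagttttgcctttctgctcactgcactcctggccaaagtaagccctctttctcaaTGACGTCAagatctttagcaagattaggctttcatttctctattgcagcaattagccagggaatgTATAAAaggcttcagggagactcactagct

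Capitals mark the matches, searched on both strands. Ucp1 held the nuclear receptor half-site AGGTCA at bases -14 to -9, counted from the RefSeq start, and Ucp3 held it at -149 to -144 and at -44 to -39. Dio2 held the cAMP response element TGACGTCA at -95 to -88 and a TATA box, TATAAA, at -30 to -25. Cox7a1 held the CCAAT box on the other strand, read as ATTGG, at -137 to -133 and at -74 to -70.

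Among 32851 RefSeq mouse promoters of the same length, 14% held AGGTCA, 1.55% TGACGTCA, 12.4% TATAAA and 33.8% CCAAT. The half-site repeated with 1 base between, and the MEF2 motif, stood in none of the 7 windows, and in 0.0335% and 3.2% of all promoters. None of these motifs overlapped another, and Cox8b, Otop1 and Ppargc1a had no match in their windows. A match describes letters, not a used site.

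Library totals ran from 5911835 counts (DKO node replicate 2) to 11950825 counts (DKO node replicate 3), so that 3 counts, used here as a floor, equal 0.507 CPM in the smallest library and 0.251 CPM in the largest (CPM is the count relative to the library's total, on a common scale). The deleted genes did not separate the genotypes: Apoe had 8.61 to 17.8 CPM in DKO nodes and 7.76 to 8.88 CPM in DKO/hA-I nodes, and Apoa1 had at most 0.675 CPM in a DKO node and 0.365 CPM in a DKO/hA-I node. Both genotypes carry the deletions, and mouse gene counts do not check the human transgene. The processed pseudogene Rpl31-ps12 went opposite ways in the tissues, with 1002, 347 and 745 counts in DKO nodes against 1 count in every DKO/hA-I node, and 2, 1 and 2 counts in DKO spleens against 597, 776 and 789 counts in DKO/hA-I spleens. Directions below take the labels as given, and whether a label is exchanged in 1 tissue was not tested. Of the tissue markers, Nkx2-5 and Tlx1, transcription factors of the spleen, had no count in any node and were counted in every spleen, while Glycam1, of node vessels, had at least 45.9 CPM in nodes and at most 0.33 CPM in spleens. DKO node replicate 2 stood apart from the other DKO nodes, and the 3 DKO nodes share 75 as the middle number of their animal codes, which no DKO/hA-I node has. Genotype and whatever that number marks cannot be told apart in the nodes.

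In lymph node, 9 of the 10 genes were lower in the libraries labelled DKO, all but Dio2. edgeR's quasi-likelihood test called 2.92% of all 14012 genes tested as lower and 3.95% as higher in DKO nodes, and nothing is read from the members' count because this contrast chose them. For these 9 genes the 3 DKO nodes lay below the 3 DKO/hA-I nodes, which was the case for 14% of all genes tested. The median log2 fold change of the 10 genes was -5.18, against 0.01 over all genes tested. In these whole-tissue samples, fewer cells of a type and less RNA per cell cannot be told apart.

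Ucp1 (chromosome 8, 83290352 to 83298452, plus strand) encodes the proton carrier that defines thermogenic fat. It had 8, 42 and 88 counts in DKO nodes 1 to 3, against 4720, 1359 and 1070 counts in DKO/hA-I nodes 1 to 3. On the CPM scale these were 0.72, 7.09 and 7.76 CPM in DKO nodes and 430.79, 122.03 and 114.45 CPM in DKO/hA-I nodes. The groups did not overlap, and the lowest DKO/hA-I node was far above the highest DKO node. The log2 fold change was -5.46 ± 0.87 (SE). By count, Ucp1 ranked 275, 1840 and 2102 of 23284 genes in the DKO/hA-I nodes, while its best rank in a DKO node was 10898.

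Ucp3 (chromosome 7, 100472990 to 100486432, plus strand), a relative of Ucp1 best known from skeletal muscle and brown fat, was much less abundant. It had 0.54, 0.68 and 0.79 CPM in DKO nodes, against 20.17, 14.55 and 7.70 CPM in DKO/hA-I nodes, with a log2 fold change of -4.38 ± 0.45. The DKO nodes lay close together and the DKO/hA-I nodes were spread, without overlap.

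Cox8b (chromosome 7, 140898945 to 140900446, minus strand) and Cox7a1 (chromosome 7, 30184144 to 30186078, plus strand) encode tissue forms of cytochrome c oxidase subunits, found in heart, muscle and brown fat of the mouse. Cox8b had 0.18, 0.51 and 0.88 CPM in DKO nodes, against 45.09, 33.85 and 13.37 CPM in DKO/hA-I nodes (log2 fold change -5.84 ± 0.64). Cox7a1 had 0.54, 0.17 and 0.97 CPM in DKO nodes, against 36.60, 20.83 and 7.70 CPM in DKO/hA-I nodes (-5.11 ± 0.71). In both genes DKO/hA-I node 1 was highest and node 3 lowest, and no DKO node came near them.

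Cidea (chromosome 18, 67343604 to 67367785, plus strand) encodes a lipid droplet protein of brown adipocytes, and Elovl3 (chromosome 19, 46131897 to 46135694, plus strand) a fatty acid elongase induced by cold in mouse brown fat. Cidea had 0.45, 1.18 and 4.32 CPM in DKO nodes, against 187.19, 201.14 and 64.39 CPM in DKO/hA-I nodes (-6.17 ± 0.75). Elovl3 had 0.18, 0.34 and 0.71 CPM in DKO nodes, against 26.92, 12.66 and 9.41 CPM in DKO/hA-I nodes (-5.24 ± 0.60). For both, DKO node 3 was the highest of the DKO nodes and still below every DKO/hA-I node. Cidea shares its locus with the antisense gene B430212C06Rik, which had at most 28 counts in a library.

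Kcnk3 (chromosome 5, 30588170 to 30625271, plus strand) encodes a background potassium channel and Otop1 (chromosome 5, 38275972 to 38304217, plus strand) a proton channel. Kcnk3 had 0.54, 1.35 and 1.32 CPM in DKO nodes, against 33.22, 34.30 and 15.40 CPM in DKO/hA-I nodes (-4.73 ± 0.45). Otop1 had 0.09, 0.68 and 0.35 CPM in DKO nodes, against 26.29, 20.65 and 10.80 CPM in DKO/hA-I nodes (-5.84 ± 0.57). The groups did not overlap for either channel. The antisense gene Gm9899 overlaps Kcnk3 and had at most 76 counts, and no source used here states whether counting used the strand.

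Ppargc1a (chromosome 5, 51454250 to 51567726, minus strand) encodes PGC-1alpha, the coactivator that drives mitochondrial biogenesis. It had 2.87, 1.52 and 2.03 CPM in DKO nodes, against 10.77, 8.62 and 11.02 CPM in DKO/hA-I nodes, with a log2 fold change of -2.20 ± 0.28. The groups did not overlap, and the difference was the smallest of the 9 genes.

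Dio2 (chromosome 12, 90724552 to 90738438, minus strand) encodes type II deiodinase, which makes active thyroid hormone inside the cell. It had 9.59, 3.71 and 8.73 CPM in DKO nodes, against 20.63, 3.59 and 7.49 CPM in DKO/hA-I nodes. The groups overlapped, with only DKO/hA-I node 1 above the DKO nodes. The log2 fold change was -0.50 ± 0.62, and it was 0.44 without DKO/hA-I node 1.

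**Figure D1:**
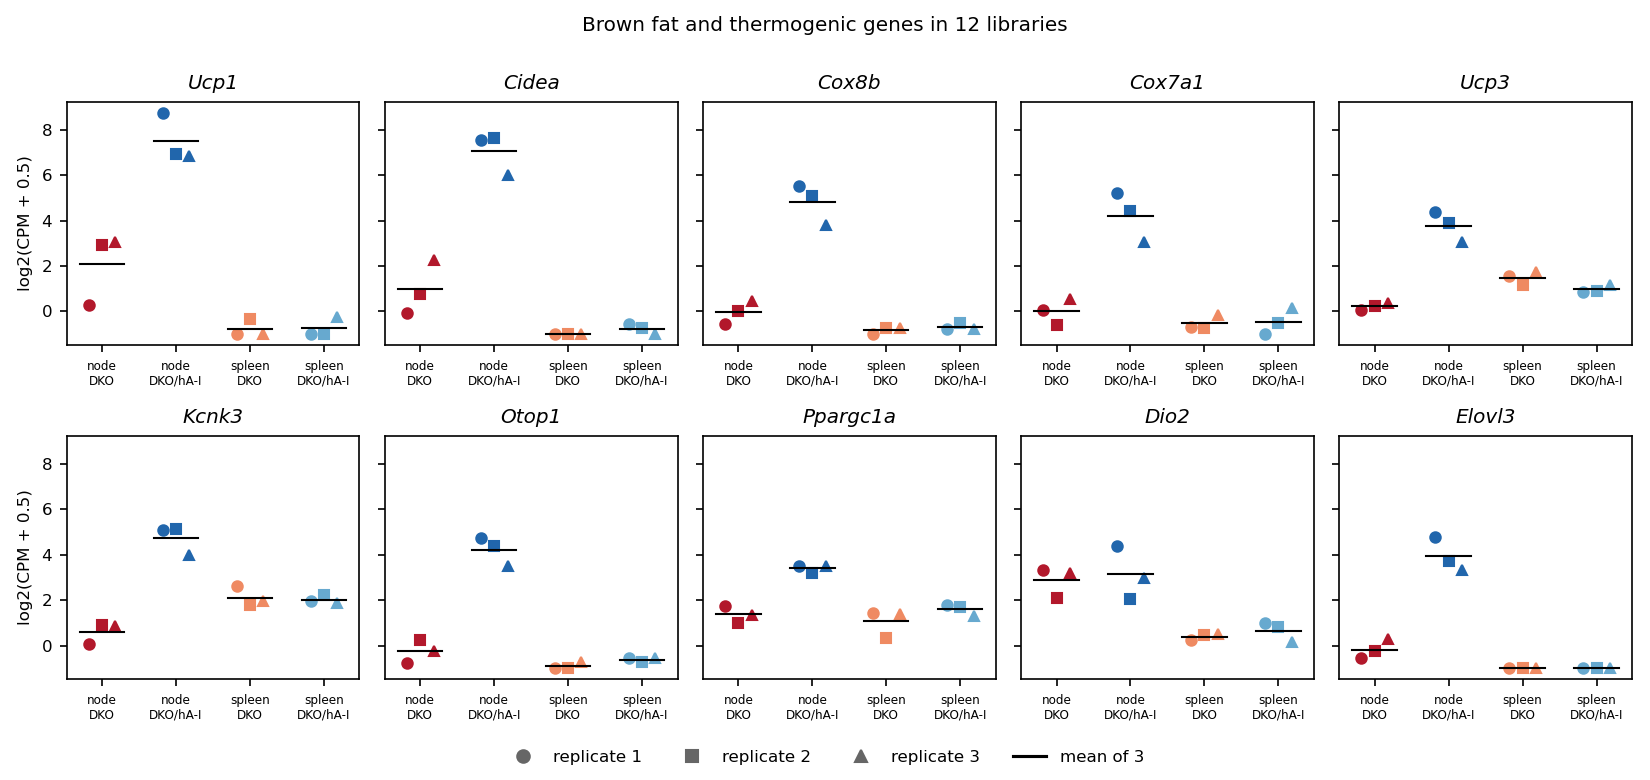
Level of each of the 10 genes (CPM on the TMM scale, logarithmic axis) in every library of DKO node, DKO/hA-I node, DKO spleen and DKO/hA-I spleen, 1 point per library. In nodes the DKO points lie below the DKO/hA-I points for 9 genes, and those of Dio2 overlap.

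Per kilobase of exon, which allows levels to be compared between genes, Ucp1 and Cidea were the most abundant of the 10 in DKO/hA-I nodes. Ucp1 averaged 3.17 CPM per kilobase in DKO nodes, against 136 in DKO/hA-I nodes. Cidea averaged 1.78 CPM per kilobase in DKO nodes, against 135 in DKO/hA-I nodes, and Cox8b averaged 1.45 in DKO nodes, against 85.5 in DKO/hA-I nodes. Ppargc1a and Dio2 were at the other end in DKO/hA-I nodes, with 1.54 and 1.82 CPM per kilobase. In DKO nodes they had 0.324 and 1.26 CPM per kilobase and were not the lowest, since Otop1 lay below both. The means of Ucp1 and Cidea in DKO/hA-I nodes did not differ beyond their spread.

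The DKO/hA-I nodes differed among themselves. The highest of the 3 nodes exceeded the lowest 3.76-fold for Ucp1, 3.12-fold for Cidea, 3.37-fold for Cox8b, 4.75-fold for Cox7a1 and 5.74-fold for Dio2. Ppargc1a was the most even, at 1.28-fold, and the other 4 genes lay between 2.23-fold (Kcnk3) and 2.86-fold (Elovl3). Node 1 was highest for 7 of the 10 genes, node 2 for Cidea and Kcnk3, and node 3 for Ppargc1a. Node 3 was lowest for 8 genes, the exceptions being Ppargc1a and Dio2.

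Genes that all adipocytes use were ordered differently among the same 3 nodes. Of 15 shared adipocyte genes, 14 were highest in DKO/hA-I node 2 and all 15 were lowest in node 3. Adipoq, the adipocyte hormone adiponectin, had 1.52, 4.22 and 2.03 CPM in DKO nodes, against 87.6, 173.6 and 40.3 CPM in DKO/hA-I nodes. Ucp1 counts per Adipoq count were 0.471, 1.68 and 3.83 in DKO nodes, against 4.92, 0.703 and 2.84 in DKO/hA-I nodes. These ratios overlapped between the genotypes, with DKO/hA-I node 1 the highest and DKO node 1 the lowest. Cidea counts per Adipoq count were 0.294, 0.28 and 2.13 in DKO nodes, against 2.14, 1.16 and 1.6 in DKO/hA-I nodes, and also overlapped. The ratios to Adipoq overlapped for 8 of the 10 genes and were higher in every DKO node for Ppargc1a and Dio2. Ppargc1a counts per Adipoq count were 1.88, 0.36 and 1.0 in DKO nodes, against 0.123, 0.0497 and 0.273 in DKO/hA-I nodes. Dio2 counts per Adipoq count were 6.29, 0.88 and 4.3 in DKO nodes, against 0.235, 0.0207 and 0.186 in DKO/hA-I nodes. The DKO ratios rest on 17 to 25 Adipoq counts per library, and they were not tested.

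**Figure D2:**
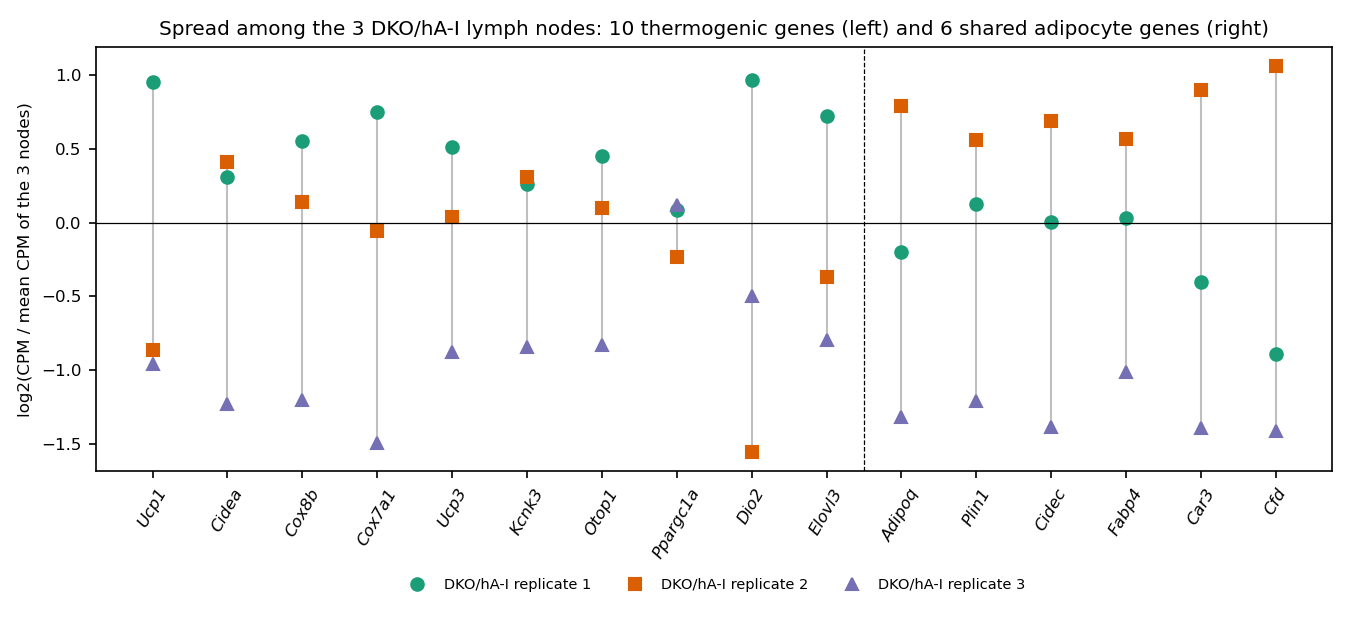
Level in each DKO/hA-I node relative to the mean of the 3 nodes (log2 of CPM over mean CPM) for the 10 thermogenic genes, left, and for 6 of the 15 shared adipocyte genes, right, chosen for display after their values were seen. Node 1 is highest for 7 of the thermogenic genes, and node 2 for all 6 adipocyte genes shown.

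Ucp1, Cox8b and Cox7a1 each have a broadly expressed relative. In whole tissue these relatives come from many cell types, so a share of the brown fat form mixes cells. Cox8b made up 0.329%, 1.14% and 1.69% of Cox8b plus Cox8a, per exon length, in DKO nodes, against 39.1%, 32.5% and 21% in DKO/hA-I nodes. Cox7a1 made up 2.49%, 0.73% and 4.39% of Cox7a1 plus Cox7a2 in DKO nodes, against 56.2%, 41.4% and 27.5% in DKO/hA-I nodes. For both subunits the DKO/hA-I shares were highest in node 1 and lowest in node 3, and the genotypes did not overlap.

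Ucp1 made up 0.352%, 4.26% and 3.47% of the 3 Ucp genes, per exon length, in DKO nodes, against 76.4%, 51.5% and 45.6% in DKO/hA-I nodes. This share depends on the length taken for Ucp2, whose annotation includes retained introns. With the principal transcript of each gene as its length, an alternative chosen after the first shares had been seen, it was 0.201%, 2.48% and 2.01% in DKO nodes, against 65.3%, 38.2% and 32.5% in DKO/hA-I nodes. The genotypes were apart with both lengths. Ucp2, common in immune cells, had a log2 fold change of 0.67 ± 0.16 in node and missed the threshold in edgeR (adjusted p 0.0506). DESeq2 called it (adjusted p 0.0032), as did edgeR without DKO node replicate 2 (adjusted p 0.00675). Cox8a and Cox7a2 were not called (edgeR log2 fold changes -0.35 and -0.27, adjusted p 0.237 and 0.359).

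**Figure D3:**
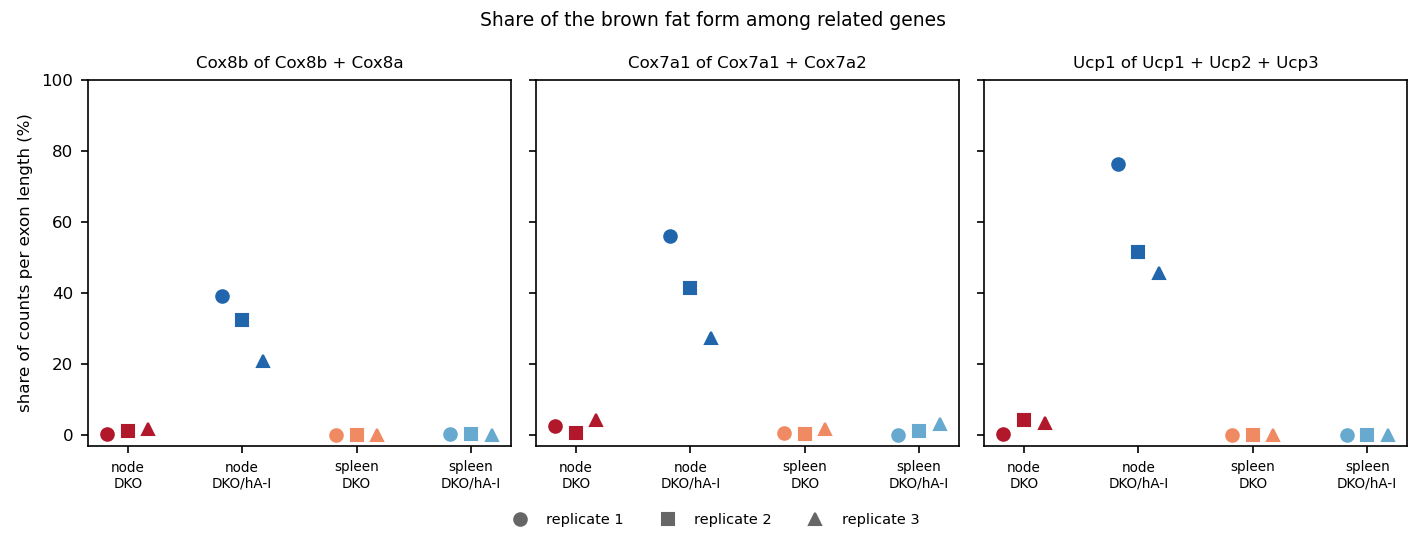
Share of the brown fat form among its close relatives (percent of counts per exon length), for Cox8b, Cox7a1 and Ucp1, 1 point per library in each of the 4 groups. The DKO/hA-I nodes reach 21% to 76.4%, and every DKO node lies at or below 4.39%.

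In spleen most of the 10 genes were at or near 0. The brown fat forms made up at most 0.379% (Cox8b), 3.27% (Cox7a1) and 0.14% (Ucp1) of their gene groups, per exon length, in a spleen. Elovl3 had no count in any of the 6 spleens, which allows up to 3 counts per library. Ucp1, Cidea, Cox8b and Otop1 had at most 0.35 CPM and Cox7a1 at most 0.61 CPM in any spleen. Dio2 had 0.67, 0.88 and 0.90 CPM in DKO spleens, against 1.5, 1.26 and 0.61 CPM in DKO/hA-I spleens, with overlap.

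Only Ucp3, Kcnk3 and Ppargc1a passed the filter on low counts in spleen, where they could be tested because spleen did not choose them. Ucp3 had 2.45, 1.75 and 2.81 CPM in DKO spleens, against 1.32, 1.36 and 1.74 CPM in DKO/hA-I spleens. The groups did not overlap, by a narrow margin, as was the case for 10.6% of all spleen genes tested in one or the other direction, and edgeR gave a log2 fold change of 0.65 ± 0.29 with an adjusted p of 0.929. Kcnk3 had 5.57, 2.92 and 3.41 CPM in DKO spleens, against 3.36, 4.18 and 3.22 CPM in DKO/hA-I spleens (edgeR 0.14 ± 0.28, adjusted p 0.953), with overlap, and the log2 fold change was -0.18 without DKO spleen 1. Ppargc1a had 2.23, 0.78 and 2.10 CPM in DKO spleens, against 2.91, 2.72 and 2.00 CPM in DKO/hA-I spleens (edgeR -0.59 ± 0.37, adjusted p 0.929), with overlap. None of the 3 was called by edgeR or DESeq2 and 0 had an unadjusted edgeR p under 0.05. Of all 14009 spleen genes tested, 0.00714% were called.

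Other genes of the thermogenic program were counted from 6 lists, also written with earlier results of these data known. The share called in these lists and that over all genes are therefore not a like comparison. In node, edgeR called 25 of the 75 genes tested, 21 lower and 4 higher in DKO nodes, against 6.87% of all genes tested. The count fell to 11 without DKO node 1, 9 without DKO node 3, 8 without DKO/hA-I node 1 and 9 without DKO/hA-I node 2. In spleen 0 of 64 were called by edgeR and 0 by DESeq2, and 3 had an unadjusted p under 0.05. Blocking on the middle number of the animal code gave 8 calls among them (7 with higher and 1 with lower levels in DKO). Calls over all spleen genes then numbered 515 in place of 1. DKO spleen 1 is the only spleen with 56 as that number, so this block takes it out of the genotype comparison.

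Of 18 transcriptional regulators tested, 3 fell in DKO nodes and none rose. Ppara, the nuclear receptor for fatty acid oxidation, had 0.45, 1.52 and 1.32 CPM in DKO nodes, against 31.7, 36.0 and 16.5 CPM in DKO/hA-I nodes (edgeR log2 fold change -4.74, adjusted p 0.0073). Ebf2, a factor that commits precursors to brown fat in the mouse, fell by 2.87 (adjusted p 0.0162) and Ppargc1b, a relative of Ppargc1a, by 1.18 (adjusted p 0.0202). Prdm16, a coregulator of brown fat identity, was not called (-0.93, edgeR adjusted p 0.156), nor was Pparg, the master regulator of adipocytes (-0.72, adjusted p 0.219). The list's median log2 fold change was -0.13. Its count was 1 without DKO node 1, DKO node 3 or DKO/hA-I node 1, and 5 without DKO node 2.

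On the adrenergic side, 2 of 13 genes tested fell. Adrb3, the beta receptor of mouse adipocytes, had 0.72, 0.68 and 1.15 CPM in DKO nodes, against 40.6, 57.3 and 11.2 CPM in DKO/hA-I nodes (edgeR -5.37, adjusted p 0.0121). Prkar2b, a regulatory subunit of protein kinase A, fell by 3.37 (adjusted p 0.0073). Both calls held without any single node library. Like Adipoq, Adrb3 was highest in DKO/hA-I node 2.

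Of 17 other brown fat effectors tested, 14 fell in DKO nodes and none rose, with a median log2 fold change of -3.63. Pdk4, the kinase that turns off pyruvate dehydrogenase, had 10.2, 17.9 and 16.6 CPM in DKO nodes, against 224, 234 and 202 CPM in DKO/hA-I nodes (edgeR -3.90, adjusted p 0.0013). Aspg fell by 4.69 and Clstn3 fell by 5.07 (edgeR adjusted p 0.0073 for both). Without DKO node 1 the count was 7, and it was 5 without DKO node 3, DKO/hA-I node 1 or DKO/hA-I node 2.

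Of 9 genes tested for heat production that does not use UCP1, 4 rose and 1 fell in DKO nodes, and none of these 5 calls held in every omission of a library. Ckb, the brain-type creatine kinase, had 249.7, 51.0 and 236.0 CPM in DKO nodes, against 28.9, 26.9 and 24.4 CPM in DKO/hA-I nodes (edgeR 2.74, adjusted p 0.0296). Gatm, which makes the creatine precursor, rose by 1.87 (adjusted p 0.0310) and Slc6a8, the creatine transporter, by 2.76 (adjusted p 0.0314), while the calcium release channel Ryr2 fell by 1.54 (adjusted p 0.0317). Many other cells express these genes. The list's count was 0 when any DKO/hA-I node was left out, 1 without DKO node 1 or 3, and 2 without the filter on low counts.

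Among 8 carriers related to the uncoupling proteins, only Slc25a20, the carnitine carrier, was called (-1.05, edgeR adjusted p 0.0341), and that call was lost without DKO node 1, DKO node 3, DKO/hA-I node 1 or DKO/hA-I node 2. Of 10 cytochrome c oxidase genes outside the member set, 0 were called by edgeR and 0 by DESeq2, with 4 at an unadjusted p under 0.05. Cox4i1 and Cox7a2l, the most abundant, had log2 fold changes of -0.27 and -0.15 (edgeR adjusted p 0.364 and 0.537).

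**Figure D4:**
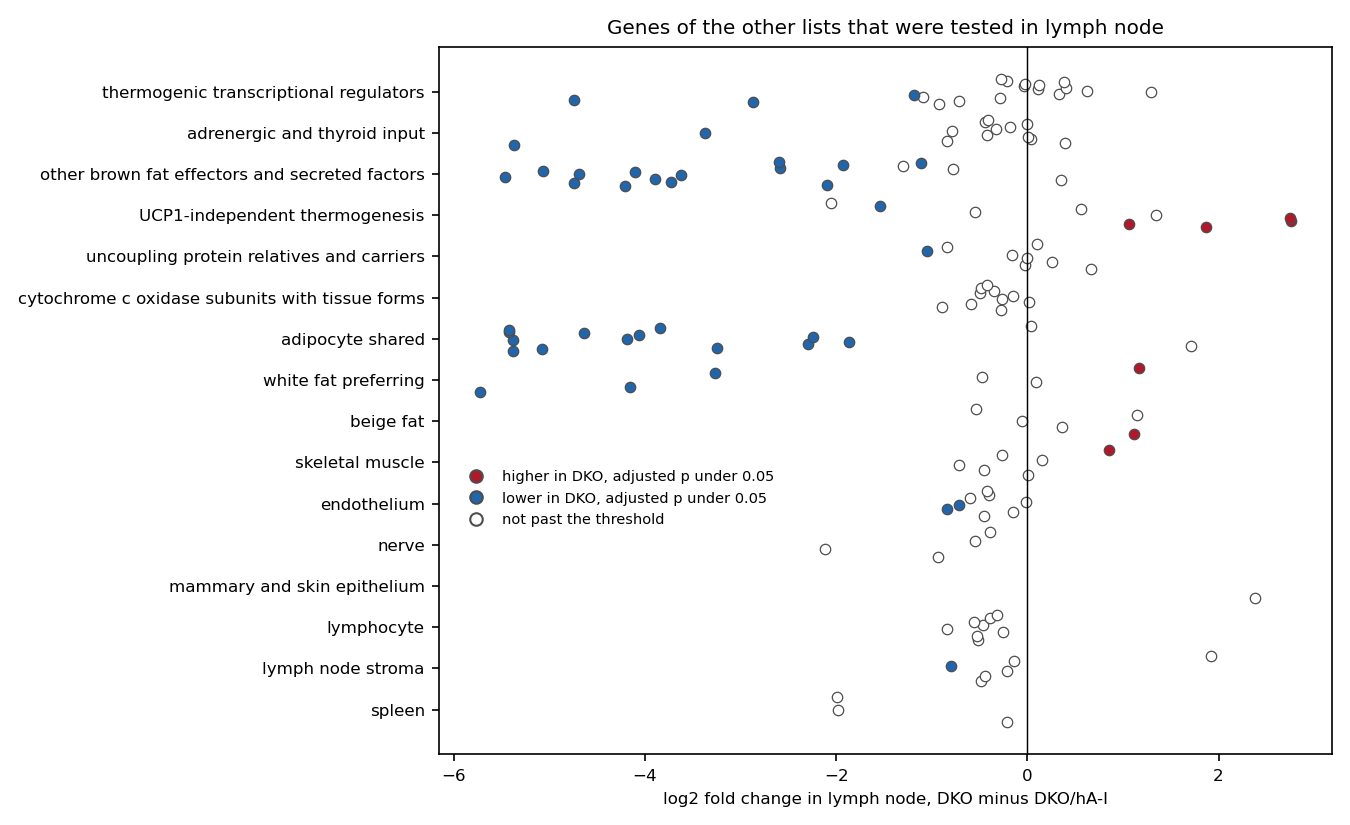
log2 fold change in lymph node (DKO minus DKO/hA-I) of every tested gene in the 16 lists, 1 point per gene, filled where edgeR's adjusted p was under 0.05. Most points of the effector and shared adipocyte lists are lower in DKO nodes, with medians of -3.63 and -4.06.

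Adipocyte genes outside the thermogenic program moved with the members. Of 15 shared adipocyte genes, 13 fell in DKO nodes and none rose (median log2 fold change -4.06), among them Pck1 (-5.43), Plin1 (-5.08) and Aqp7 (-3.84), with edgeR adjusted p of 0.0073, 0.0090 and 0.0095. Of the 13 calls, 8 held in every omission of a library, while Cfd was called in 0 of 6 omissions, Pnpla2 in 2 and Lipe in 3. Lpl (1.72, edgeR adjusted p 0.112) and Cebpa (0.04) were not called. The 15 genes summed to 832 to 2822 CPM in DKO nodes and 1733 to 5118 CPM in DKO/hA-I nodes. Lpl alone had 484 to 2404 CPM in DKO nodes and 242 to 568 CPM in DKO/hA-I nodes. Without it, a sum taken after its values were seen, the other 14 genes gave 348 to 418 CPM in DKO nodes and 1491 to 4550 CPM in DKO/hA-I nodes, without overlap. Genes that prefer white fat gave 3 lower calls (Lep, Retn and Npr3) and 1 higher call (Dpt) of 6 tested, a count that was 0 without DKO node 1, DKO node 3 or DKO/hA-I node 1. Of the beige fat list, 1 of 5 tested was called, Tmem26, higher by 1.11. The part of adipocyte number in the members' values was not tested.

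Skeletal muscle also uses Ucp3, Cox8b and Cox7a1. Its 15 markers summed to 51.5 to 57.2 CPM in DKO nodes and 55.4 to 58.6 CPM in DKO/hA-I nodes. Ttn and Neb made up most of each sum, and the spleens summed to 45.3 to 60.8 CPM. Ckm, Myh1, Myh2, Myh4, Mb and Tnnc2 had at most 1.5 CPM in any node, so the sum says little about muscle. Of 6 markers tested 1 was called, Neb, higher in DKO nodes by 0.85. Lymphocyte markers summed to 3079 to 3678 CPM in DKO nodes and 4204 to 4715 CPM in DKO/hA-I nodes, with 0 of 8 called by edgeR, 2 by DESeq2 and 5 at an unadjusted p under 0.05. Endothelial markers summed to 589 to 688 CPM in DKO nodes and 822 to 907 CPM in DKO/hA-I nodes, with Kdr (-0.84) and Tek (-0.72) called among 8 tested. Nerve markers summed to 73.1 to 118 CPM in DKO nodes and 118 to 146 CPM in DKO/hA-I nodes. Mbp made up most of each sum, with 66.0 to 103 CPM in DKO nodes and 110 to 128 CPM in DKO/hA-I nodes. It had 90.3 to 111 CPM in spleens, so the sum is not particular to nerve. Npy went the other way, with 6.81, 0.51 and 7.67 CPM in DKO nodes, against 0.18, 0 and 0.11 CPM in DKO/hA-I nodes. Th and Dbh, the enzymes that define noradrenergic nerves, had no count in any node. Of the epithelial markers Krt5, Krt14 and Wap had no count in any node. The list summed to 7.98 to 73.3 CPM in DKO nodes, highest in DKO node 2, and 4.76 to 8.94 CPM in DKO/hA-I nodes. In DKO node 2 nearly all of the sum was Epcam, with 72.3 CPM. Of the genes tested, edgeR called 0 of 4 nerve, 0 of 1 epithelial and 0 of 3 spleen markers, with 1 in each list at an unadjusted p under 0.05, and DESeq2 called 1, 0 and 0. Of 6 node stroma markers, Lyve1 was called (-0.80), and the list summed to 446 to 621 CPM in DKO nodes and 649 to 831 CPM in DKO/hA-I nodes. Of the 6 omissions of a library, Neb, Tek and Lyve1 were called in 1 and Tmem26 and Kdr in 2. The part of these cell types in the members' values was not tested.

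The genes whose pattern over the 6 nodes was most like the mean of the 10 were Aspg (Pearson r 0.998), Tal1 (0.997), Ybx2, Atpaf2 and Ntrk2 (0.996 each), Clstn3 and Prkd1 (0.995 each) and Bche (0.994). The measure is the correlation of log2(CPM + 0.5) over 6 libraries that fall into 2 separate groups, so it is a description and mostly restates the difference between them. Tal1, Atpaf2 and Prkd1 had log2 fold changes of -0.79, -0.71 and -1.03, closer to 0 than those of every member except Dio2, while Ybx2 and Bche had -3.99 and -4.88.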

How the data were processed

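Raw read counts per gene were deposited by the authors in 1 table per tissue, per the file headers, and the authors' own comparison beside them was not used here. The submitters' processing notes name Trimmomatic, Bowtie, TopHat, Cuffdiff and GRCm38 (mm10), without versions. The annotation, the counting program and its use of strand are not given in the sources used, so overlapping genes may share reads. Columns were matched to libraries by animal code. The members and lists were chosen with earlier results of these data known.

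For lymph node and spleen apart, filterByExpr (at least 10 counts, total at least 15) chose the genes, TMM set the scale, and the test came from edgeR 4.0.16 (R 4.3.3, robust quasi-likelihood test, DKO minus DKO/hA-I). Calls use a Benjamini-Hochberg adjusted p under 0.05 over all genes tested. CPM values are on the TMM scale of their tissue. Errors are approximate SE, the size of the log2 fold change divided by the square root of edgeR's F statistic. Those of the members in node come from the contrast that chose them and are not read as a test. Per-kilobase values use the union of GENCODE vM21 exons (GRCm38), to which 89.8% of symbols matched. DESeq2 1.42.0, other scalings and filters, replicate and animal code blocks and omission of each library were the alternatives. The p-values reflect only the variation among these libraries, and floors cover counting error only. The steps were tested on simulated counts. In node, 48 of 100 simulated 2-fold changes and 87 of 100 simulated 4-fold changes were called in the right direction. In spleen these were 83 of 100 and 95 of 98. A node gene that was not called may therefore still differ 2-fold. Named genes are the 10 members, up to 3 called genes of lowest adjusted p per list or otherwise 2 of highest CPM, the sister forms, Rpl31-ps12 and the 8 genes of most similar pattern, and others were named after their values were seen. Library totals are given with the results.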

Additional observations from a re-analysis of the deposited data

Results flagged for a closer look

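Among 122 members, list genes and other named genes tested in both tissues, 5 had every DKO library on one side of the DKO/hA-I libraries in lymph node and on the other side in spleen. Over all 13518 genes tested in both tissues this was so for 129 (0.954%). The members and lists were chosen with earlier results known, and the genes of most similar pattern by their node values. The 2 shares are therefore not a like comparison, and nothing is read from them. The difference between the tissues was not tested. Ucp3 had log2 fold changes of -4.38 in lymph node and 0.65 in spleen. The pseudogene Rpl31-ps12 had 9.37 in lymph node and -8.48 in spleen. Ppargc1b had -1.18 in lymph node and 0.32 in spleen, and the mitochondrial regulator Nrf1 had -0.21 in lymph node and 0.29 in spleen. Cpt1b, which brings fatty acids into mitochondria, had -4.21 in lymph node and 1.72 in spleen. Its spleen value rests on 60, 76 and 84 counts in DKO spleens, against 44, 0 and 32 counts in DKO/hA-I spleens. In spleen edgeR did not call Ppargc1b, Nrf1 or Cpt1b, with all libraries or with any single one left out.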

How the results depend on the processing

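The members' lymph node fold changes carry no test, so their calls under other settings are not counted. Over all genes, lymph node calls numbered 962 (553 higher, 409 lower), 1996 with DESeq2, 438 with the replicate block and 115 to 2245 with a library left out, the lowest when DKO/hA-I replicate 2 and the highest when DKO replicate 2 was left out. The 25 calls of the 6 thermogenic lists were 33 with DESeq2, 17 with the replicate block and 8 to 30 with a library left out. DESeq2 was run without the filter on low counts. Its 33 calls were therefore counted over all 85 listed genes and include genes outside the 75 that edgeR tested. Replicate numbers did not pair the samples (same-number correlations of deviations -0.143 to 0.035 in node and -0.110 to 0.124 in spleen), so the block shares only a number. In spleen 1 gene was called, 515 with the middle number of the animal code as a block and 1 to 167 with a library left out, the highest without DKO replicate 1. The 6 lists had 0 spleen calls, and 8 with the animal code block. Dio2 in node (log2 fold change -0.50) ran from -0.91 to 0.44 with a library left out, positive without DKO/hA-I replicate 1. Kcnk3 in spleen (0.14) ran from -0.18 to 0.33, negative without DKO replicate 1 and, at -0.18, with the animal code block. That block also takes DKO replicate 1 out of the genotype comparison, so these settings are not independent. The cause was not tested. Genes at a few counts in DKO nodes have folds limited by depth.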
